A study of Caenorhabditis elegans with 2 samples.

Results

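Wnt proteins are secreted signals that set cell fate and the axis of cell division. In the worm embryo the pathway runs from Frizzled-type receptors through Dishevelled proteins to the beta-catenins, which act on POP-1, the worm member of the TCF family of DNA-binding proteins. In the asymmetry branch, the beta-catenin WRM-1 and the kinase LIT-1 lower nuclear POP-1 in 1 daughter of a division, while the beta-catenin SYS-1 serves as its coactivator. Described here are the peaks of the tagged homeodomain protein CEH-31 at 10 genes of this pathway. They are mig-5, dsh-1 and dsh-2 (Dishevelled), hmp-2, wrm-1, sys-1 and bar-1 (beta-catenin), pop-1 (TCF), lit-1 (Nemo-like kinase) and vang-1 (Van Gogh, a membrane protein of planar cell polarity). They were chosen by name from the pathway after the promoter peaks of these data and their signal had been seen, and they are 10 of 19973 protein-coding genes. Their number with a peak and the size of these peaks are therefore a description.

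The samples were 2 biological replicates of chromatin immunoprecipitation sequencing (ChIP-seq) from whole hermaphrodite embryos of strain OP370, at a late embryonic stage, 5 h after egg bleaching. All animals carried unc-119(tm4063) and the transgene wgIs370, from which CEH-31 with a C-terminal GFP-FLAG tag is made. An antibody to GFP recovered the fusion protein from sonicated chromatin. The labels do not name the promoter of the transgene. The replicates form 1 group, so no conditions could be compared, and the spread between replicates is the only error at hand. A peak in whole embryos does not tell strong binding in few cells from weak binding in many.

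The relaxed lists held 21175 peaks in replicate 1, 22471 in replicate 2 and 24555 in the pooled replicates. A further list, named optimal by the authors, holds the 3697 peaks that passed their cut on the irreproducible discovery rate (IDR). Signal is the score that the authors' peak caller gave each peak. It ran from 90.5 to 3595 in the optimal list, with a median of 148.5, and a rank of 1 is the highest. Of the 24555 pooled peaks, 20858 had a signal below the lowest optimal one, so the optimal list is the strongest part of the pooled list. A place in it is thus no measure of replicate agreement at a single peak. Signals of the replicate lists are lower than pooled ones at the same summit, so values are compared within a list or between the replicates. Peak lists hold no read counts, so depth is unknown.

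The reference sequence at the strongest optimal summit of mig-5, vang-1, wrm-1, dsh-1 and lit-1 is shown for the 201 bp centred on it, since these windows hold the bases that were searched for motifs. For lit-1 the optimal summit nearest to a start of one of its transcripts is added, chosen after its values were seen. All are the plus strand of WBcel235 (ce11), 5′ to 3′, from RefSeq. Capitals mark matches to the motifs named further on, and a sequence with no capitals held none.

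mig-5, chrII:8185123-8185323, signal 191.5: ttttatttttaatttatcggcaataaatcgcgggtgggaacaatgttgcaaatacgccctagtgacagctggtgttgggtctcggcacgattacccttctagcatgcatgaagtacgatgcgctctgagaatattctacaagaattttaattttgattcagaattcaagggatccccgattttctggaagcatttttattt

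vang-1, chrX:2885423-2885623, signal 187.0: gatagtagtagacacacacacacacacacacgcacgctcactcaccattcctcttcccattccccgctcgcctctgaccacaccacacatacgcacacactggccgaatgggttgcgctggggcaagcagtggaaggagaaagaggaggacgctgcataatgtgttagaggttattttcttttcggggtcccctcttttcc

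wrm-1, chrIII:5721955-5722155, signal 169.9: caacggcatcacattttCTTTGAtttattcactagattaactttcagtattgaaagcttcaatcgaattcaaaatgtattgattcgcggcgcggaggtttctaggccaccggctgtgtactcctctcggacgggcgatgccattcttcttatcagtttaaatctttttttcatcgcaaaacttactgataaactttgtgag

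dsh-1, chrII:5226445-5226645, signal 140.6: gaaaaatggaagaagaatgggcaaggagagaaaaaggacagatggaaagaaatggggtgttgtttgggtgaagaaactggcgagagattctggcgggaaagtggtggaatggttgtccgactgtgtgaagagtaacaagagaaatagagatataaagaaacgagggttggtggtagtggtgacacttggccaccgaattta

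lit-1, chrIII:13713028-13713228, signal 254.0: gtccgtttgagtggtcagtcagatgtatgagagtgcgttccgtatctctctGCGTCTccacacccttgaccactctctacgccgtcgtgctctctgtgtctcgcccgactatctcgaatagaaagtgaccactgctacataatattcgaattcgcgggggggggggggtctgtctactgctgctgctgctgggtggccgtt

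lit-1 near a transcript start, chrIII:13717598-13717798, signal 120.0: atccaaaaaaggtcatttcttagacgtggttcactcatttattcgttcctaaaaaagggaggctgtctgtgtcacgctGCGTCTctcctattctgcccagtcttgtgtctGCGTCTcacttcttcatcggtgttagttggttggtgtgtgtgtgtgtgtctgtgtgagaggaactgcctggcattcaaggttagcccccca

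Both lit-1 sequences hold GCGTCT, the first at 1 place and the other at 2. The vang-1 window holds a run of alternating C and A bases, and the lit-1 window near a transcript start a run of alternating G and T. The dsh-1 window is rich in A and G on the strand shown.

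CEH-31 peaks lay at all of the described classes of gene, but not at all of their members. A window from 2000 bp upstream of the gene start to the gene end held an optimal summit at 8 of the 10 genes, against 18.0% of all protein-coding genes. The 8 genes were mig-5, dsh-1, hmp-2, wrm-1, sys-1, pop-1, lit-1 and vang-1. The Dishevelled gene dsh-2 had a peak only in the relaxed lists, and the beta-catenin gene bar-1 had none in any list. In the relaxed pooled list, 9 of the 10 genes had a summit, against 55.2% of all genes.

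Longer genes have more room for a peak, so the counts were also read by length of the window. Of the 2 genes with a window under 5 kb, mig-5 held an optimal summit and dsh-2 did not, where 13.2% of all such genes held one. Of the 5 genes with windows of 5 to 10 kb, 4 held one, against 23.9% of all such genes. All 3 genes with longer windows, dsh-1, pop-1 and lit-1, held one, against 41.8%. The summits at the 10 genes numbered 12, or 1.34 per 10 kb of window. Those of 30 other pathway genes, described further on, came to 1.02 per 10 kb. For all protein-coding genes the value was 0.419 per 10 kb, counting a summit once for each window it lies in.

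**Figure D1:**
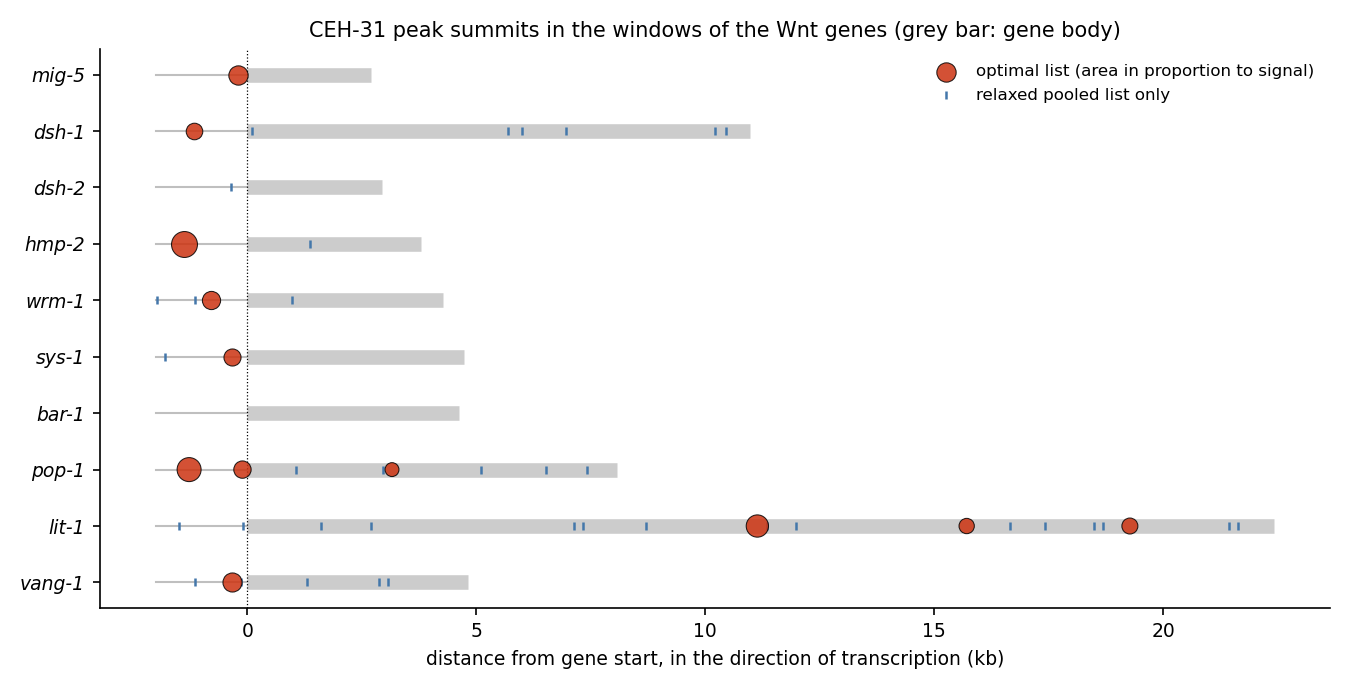
Summits by gene, as distance from the gene start in kb along the direction of transcription. The grey bar is the gene body, the thin line the 2000 bp upstream of it, red circles are the 12 optimal summits with an area in proportion to signal, and blue ticks are summits of the relaxed pooled list alone; 7 genes have an optimal summit upstream of the start, and the optimal summits of lit-1 all lie inside the gene.

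Of the 12 optimal summits, 8 were intergenic, 4 were in introns and 0 in coding exons, by protein-coding genes alone. This split is close to that of all 3697 optimal summits, of which 67.9% were intergenic, 25.6% in introns and 1.60% in coding exons. Of the intergenic summits, 5 lay within 1000 bp of the gene start and 3 between 1000 and 2000 bp upstream. The promoter window, 1000 bp upstream to 200 bp downstream of the start, held an optimal summit at 5 of the 10 genes (mig-5, vang-1, wrm-1, pop-1 and sys-1), against 11.5% of all genes. At 4 of the 12 summits, all counted above as intergenic, an annotated non-coding RNA gene overlapped the position. Of these 4, 2 were at pop-1 and 1 each at vang-1 and dsh-1, and 12.3% of all optimal summits had such an overlap. Of the 12 peaks, 7 had the usual width of 440 bp and 5 were under 300 bp, the narrowest, at wrm-1, being 121 bp, while 21.4% of all optimal peaks were under 300 bp.

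The strongest peaks were those near hmp-2, pop-1 and lit-1. Their signals of 344.5, 295.2 and 254.0 took ranks 346, 485 and 675 in the optimal list. The peak counted for hmp-2 was nearer to the start of K05C4.7, at 204 bp against 1384 bp. The median of the strongest signal was 189.3 over the 8 genes with an optimal summit, and 166.8 (middle 50% from 120.9 to 252.9) over the 3595 protein-coding genes with one. Of the 8, 6 were above that median. These signals were not matched for window length, and the median window was 6.68 kb at the 10 genes and 4.03 kb at all protein-coding genes. None reached the top of the list, where the peak of rank 1 had a signal of 3595.

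**Figure D2:**
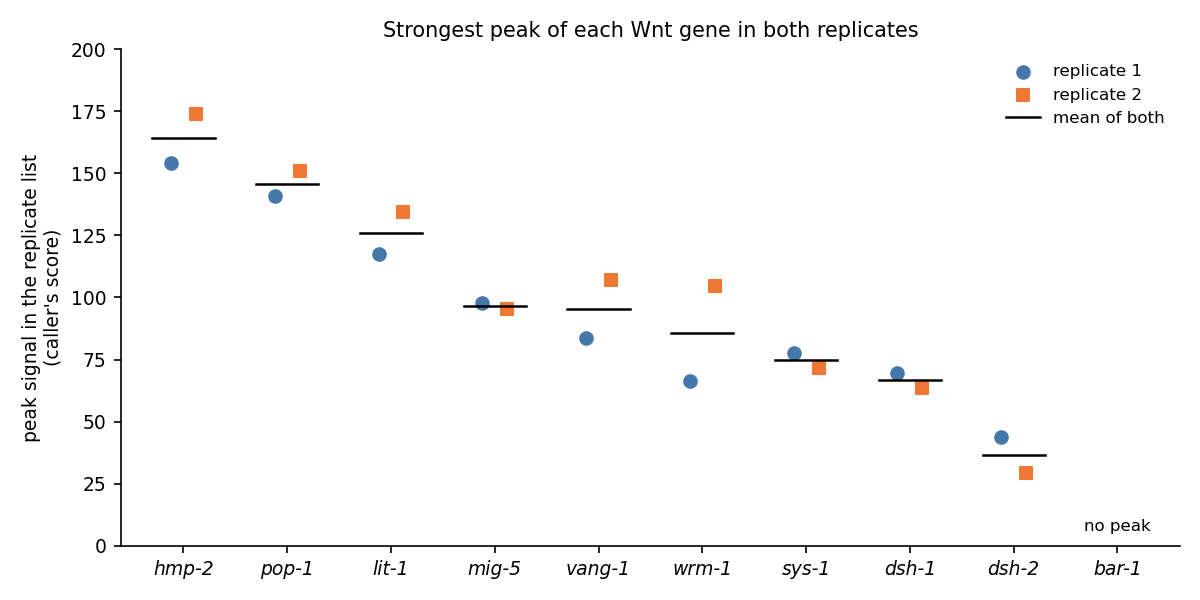
Signal of the strongest peak of each gene in the replicate 1 list (circles) and the replicate 2 list (squares), with their mean as a line, in the caller's score; bar-1 had no peak. The genes hmp-2, pop-1 and lit-1 lie above all others in both replicates, and dsh-2 lies lowest in both.

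Both replicates gave the same order for the strongest 3 genes and the same lowest gene with a peak, dsh-2, but the order between these differed. The strongest 3 genes, hmp-2, pop-1 and lit-1, came in that order in replicate 1 (154.3, 140.8 and 117.5) and in replicate 2 (173.8, 150.9 and 134.6). Their replicate values did not overlap with those of mig-5, vang-1, wrm-1, sys-1, dsh-1 or dsh-2. Among mig-5, vang-1 and wrm-1 the order differed between replicates, so these neighbours were not separated beyond their spread. The same holds for wrm-1 with sys-1 and dsh-1, since wrm-1 was lowest of the 3 in replicate 1 and highest in replicate 2.

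The agreement of replicates at these summits was read against all optimal peaks. Over the 3690 optimal peaks with a summit within 200 bp in both replicates, the log2 ratio of replicate 1 to replicate 2 signal had a median of -0.11, and the central 95% of peaks ran from -0.94 to 0.77. All 12 summits of the Wnt genes fell within this range. The lowest ratios, -0.65 each, were those of wrm-1 and of the lit-1 summit of signal 120.0, and 7.6% and 7.9% of all optimal peaks had a lower one. Replicate summits lay at most 103 bp from the optimal summit. All 12 were among the 3697 strongest peaks of replicate 2 and 11 among those of replicate 1, the exception being the intronic pop-1 peak at rank 3745. Since the optimal list holds the strongest peaks of these replicates pooled, such ranks follow in part from that choice. The share of all optimal peaks with such ranks was not counted.

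**Figure D3:**
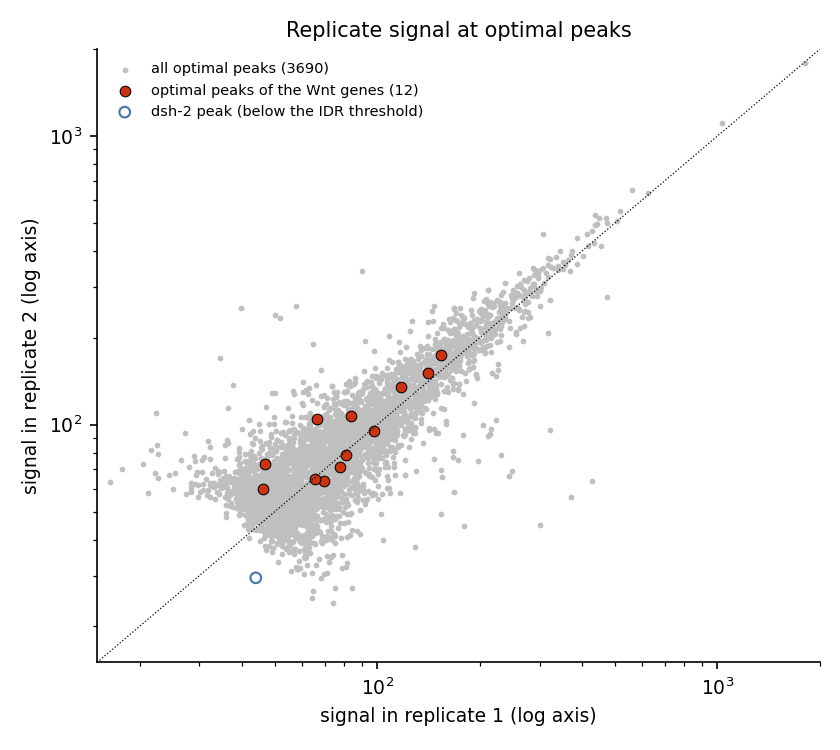
Signal in replicate 1 (x) and replicate 2 (y), both on log axes, for 3690 optimal peaks (grey), the 12 optimal peaks of the Wnt genes (red) and the dsh-2 peak below the IDR threshold (open circle); the dotted line marks equal values. The red points lie inside the grey cloud, and the dsh-2 peak is lower than every red point in both replicates.

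The 3 Dishevelled genes differed in their peaks. Dishevelled proteins carry the signal from the receptor into the cell. At mig-5 (II, 8182323 to 8185023, minus strand) the summit at 8185223 was 200 bp upstream of the start in intergenic DNA. It had a signal of 97.7 in replicate 1 and 95.3 in replicate 2 (mean 96.5 ± 1.68, SD, n = 2), and both replicates agree closely. This summit lies between divergent genes, and the start of cct-1, which encodes a subunit of the cytosolic chaperonin, was 220 bp away on the other side. The peak thus cannot be given to mig-5 alone.

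At dsh-1 (II, 5214400 to 5225384, minus strand) the summit at 5226545 was 1161 bp upstream of the start. Its signal was 69.7 in replicate 1 and 63.7 in replicate 2 (mean 66.7 ± 4.24, SD, n = 2), lower than that of mig-5 in both. The non-coding RNA genes C34F11.16 and C34F11.17 overlap this position on opposite strands. The summit of replicate 2 lay in both of them and that of replicate 1 in neither. Inside the gene, 6 more summits were in the relaxed pooled list, with signals from 30.9 to 45.0. The highest of them lay 94 bp downstream of the gene start, in a coding exon.

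At dsh-2 (II, 5078233 to 5081174, minus strand) the only summit was 348 bp upstream of the start, and it missed the optimal list. Its signal was 43.95 in replicate 1 (rank 4008) and 29.5 in replicate 2 (rank 7943), and 73.9 in the pooled list (rank 4853), below the lowest optimal signal of 90.5. The position is in the 3′ UTR of the gene upstream, C04G6.4. In both replicates the 3 genes came in the order mig-5, dsh-1, dsh-2. The nearest optimal summit to the start of dsh-2 was 11329 bp upstream.

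The 4 beta-catenin genes ranged from the strongest peak of the set to none. HMP-2 is the beta-catenin of cell junctions, WRM-1 and SYS-1 act in asymmetric division, and BAR-1 in the canonical pathway. At hmp-2 (I, 14738882 to 14742671, plus strand) the summit at 14737498 had a signal of 154.3 in replicate 1 and 173.8 in replicate 2 (mean 164.1 ± 13.8, SD, n = 2). It lay 1384 bp upstream of the start of hmp-2 and only 204 bp upstream of that of K05C4.7, the gene between. This peak thus cannot be given to hmp-2 alone. The other summit of hmp-2, in a coding exon, was weak, with a signal of 31.9 in the relaxed pooled list.

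At wrm-1 (III, 5722850 to 5727115, plus strand) the summit at 5722055 was 795 bp upstream of the start, in an intergenic region where wrm-1 has the nearest start. The signal was 66.5 in replicate 1 and 104.6 in replicate 2 (mean 85.6 ± 27.0, SD, n = 2), the widest spread of the set. A second summit at wrm-1, 1147 bp upstream, had a signal of 88.4 in the relaxed pooled list at rank 3838, just outside the optimal list. In replicate 1 it had a signal of 46.8, and replicate 2 had no summit within 200 bp of it. The next, 1977 bp upstream, had 57.8 in the pooled list and a summit in both replicates, of 26.8 and 23.6.

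At sys-1 (I, 9980063 to 9984794, minus strand) the summit at 9985128 was 334 bp upstream of the start, with no other protein-coding start within 3635 bp. Its signal was 77.8 in replicate 1 and 71.6 in replicate 2 (mean 74.7 ± 4.38, SD, n = 2). The ranks were 1668 and 2101.

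At bar-1 (X, 7166005 to 7170625, minus strand) no list had a summit in the window of 6.62 kb. The nearest summit of the relaxed pooled list was 3046 bp upstream of its start, and the nearest optimal summit 11176 bp upstream. A window of 5 to 10 kb without any relaxed summit was found at 28.8% of all genes with such windows. A peak list gives no upper limit for binding at a gene without a peak.

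The gene of the DNA-binding end point, pop-1, and that of the kinase LIT-1 each had 3 optimal summits. Of all protein-coding genes, 0.701% had 3 or more, and of those with windows over 10 kb, as both of these have, 6.69%. The pop-1 window, of 10.07 kb, was only just over this limit, and that of lit-1 was 24.4 kb. The pop-1 gene (I, 2822243 to 2830311, minus strand) had 2 upstream summits and 1 in an intron. The upstream summits, at 2831580 and 2830415, were 1269 and 104 bp from the start.

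The distal pop-1 summit had a signal of 140.8 in replicate 1 and 150.9 in replicate 2 (mean 145.9 ± 7.17, SD, n = 2). The proximal one had 80.7 and 78.5 (mean 79.6 ± 1.57). The intronic summit, at 2827150 and 3161 bp downstream of the start, had 46.1 and 59.8 (mean 52.9 ± 9.71). In both replicates the distal peak was highest and the intronic lowest, and the values did not overlap. The intronic peak had a pooled signal of 98.7 at rank 3331, the lowest of the 12 and just inside the optimal list.

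Annotated non-coding RNA genes overlapped or adjoined each of the 3 pop-1 summits. The distal summit is within the non-coding RNA genes W10C8.8 and W10C8.12, and the proximal one within W10C8.14. The intronic summit was 77 bp upstream of the start of the snoRNA gene W10C8.17, which lies inside pop-1 on the same strand. In replicate 2 the matching summit lay within W10C8.17, and in replicate 1 it was 83 bp upstream of it. No other protein-coding start was nearer than pop-1 to any of the 3.

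At lit-1 (III, 13701991 to 13724404, plus strand) all optimal summits were deep inside the gene, in introns. They lay 11137, 15707 and 19270 bp from the gene start. The first, at 13713128, had a signal of 117.5 in replicate 1 and 134.6 in replicate 2 (mean 126.0 ± 12.1, SD, n = 2). The next, at 13717698, had 46.7 and 73.1 (mean 59.9 ± 18.7), and the last, at 13721261, had 65.5 and 64.9 (mean 65.2 ± 0.482). The first was highest in both replicates, and the order of the other two differed between them.

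The lit-1 gene has 7 annotated transcripts, several of which start far inside it. Measured from these, the first summit was 917 bp upstream of the start of transcript W06F12.1a.1 and the next 267 bp upstream of that of W06F12.1b.1. The last was 1865 bp downstream of the nearest start, that of W06F12.1c.1. By distance to gene starts alone, the latter 2 summits are nearer to the next gene, W06F12.2, at 13991 and 10428 bp. The start of the whole gene had a weak summit in the relaxed pooled list, 88 bp upstream, with a signal of 38.4 at rank 13266. The starts of W06F12.1a.1 and W06F12.1c.1 had relaxed summits of like strength, 44.4 at 71 bp upstream and 44.8 at 14 bp downstream. In all, the lit-1 window held 18 summits of the relaxed pooled list in 24.4 kb.

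VANG-1 acts in the planar polarity branch, which shares Dishevelled with the beta-catenin branches. At vang-1 (X, 2885858 to 2890681, plus strand) the summit at 2885523 was 335 bp upstream of the start, and the nearest start of another protein-coding gene was 5944 bp away. Its signal was 83.5 in replicate 1 and 106.9 in replicate 2 (mean 95.2 ± 16.6, SD, n = 2). The position is covered by the non-coding RNA genes F53B3.10 and F53B3.12 on opposite strands. The summit of replicate 1 lay in F53B3.12 alone and that of replicate 2 in F53B3.10 alone. Of the 5 other relaxed summits at vang-1, the highest had a signal of 39.9, in an intron.

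Of 49 summits of the relaxed pooled list at the 10 genes, 37 were below the optimal list, with signals from 25.6 to 88.4, as were 84.9% of all 24555 peaks of that list. Those nearest to the threshold were at wrm-1 (88.4) and in an intron of lit-1 (86.3, rank 3961).

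Of 30 other genes of the pathway, 17 held an optimal summit in the same window and 8 in the promoter window, against the 18.0% and 11.5% of all genes given above. Their windows had a median of 7.16 kb, and that of all genes was 4.03 kb. By window length, 2 of 5 genes under 5 kb, 9 of 17 from 5 to 10 kb and 6 of 8 over 10 kb held one. The list was set with earlier results on the pathway in these data known.

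The Wnt ligand genes had no optimal peak. None of lin-44, egl-20, mom-2, cwn-1 and cwn-2 held one, and 3 of the 5 had a relaxed pooled summit, with signals of 40.7 at lin-44, 42.4 at mom-2 and at most 39.7 at cwn-1. Read against the 18.0% of all genes with an optimal summit, 5 genes are too few to set the ligands apart. Of the 3 genes of Wnt secretion, 2 held optimal summits. The highest signal of all pathway genes was in an intron of mom-1, which encodes the acyltransferase Porcupine that acts on Wnt (570.3, rank 64). In the replicates it had 295.4 and 279.2. The start of cest-16 was slightly nearer to it than that of mom-1, at 3401 against 3429 bp. Upstream of mom-1 a further summit, of 240.6, lay over a tRNA gene and nearer to the start of lev-9. The vps-35 gene, of the retromer that recycles the Wnt carrier, had a summit of 128.8 at 138 bp upstream.

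Of 6 receptor genes, 4 held optimal summits. The Frizzled gene lin-17 had 3, in introns, the strongest with a signal of 318.5 (152.6 and 170.9 in the replicates). Another of them lay 195 bp upstream of an internal transcript start. The Ror-type receptor gene cam-1 had 3 intronic summits, up to 177.2, the Ryk-type gene lin-18 had 2 upstream summits, up to 142.5, and the Frizzled gene mom-5 had 1 of 127.4 at 793 bp upstream. The summits of lin-17 and cam-1 were in introns, as were those of lit-1.

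Inside the cell, 3 of 6 genes of the destruction complex and its partners held one. They were lin-23, an F-box gene (233.7), the casein kinase gene kin-19 (203.4) and the Axin gene pry-1 (137.9). The genes axl-1, apr-1 and gsk-3 did not. The tap-1 gene, whose protein partners the kinase MOM-4, had a summit of 160.7, which lay nearer to the start of C44H4.4, and mom-4 had none. The Groucho-type corepressor gene unc-37, whose protein binds POP-1, had a summit of 247.5 at 261 bp upstream. The plr-1 gene, which encodes a ubiquitin ligase that lowers Frizzled at the cell surface, had 2, up to 106.3, and sfrp-1 had none.

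Of the other planar polarity genes, the Flamingo gene fmi-1 had 3 summits in introns, up to 168.2, and the Prickle gene prkl-1 had 1 of 119.2, also in an intron, while that of vang-1 was upstream. Of the cadherin complex in which HMP-2 acts, the cadherin gene hmr-1 had 5 intronic summits in a window of 60.9 kb, up to 254.8, the alpha-catenin gene hmp-1 had 2, the stronger, of 156.3, upstream of the start, and the p120-catenin gene jac-1 had 1 of 106.9 in an intron.

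**Figure D4:**
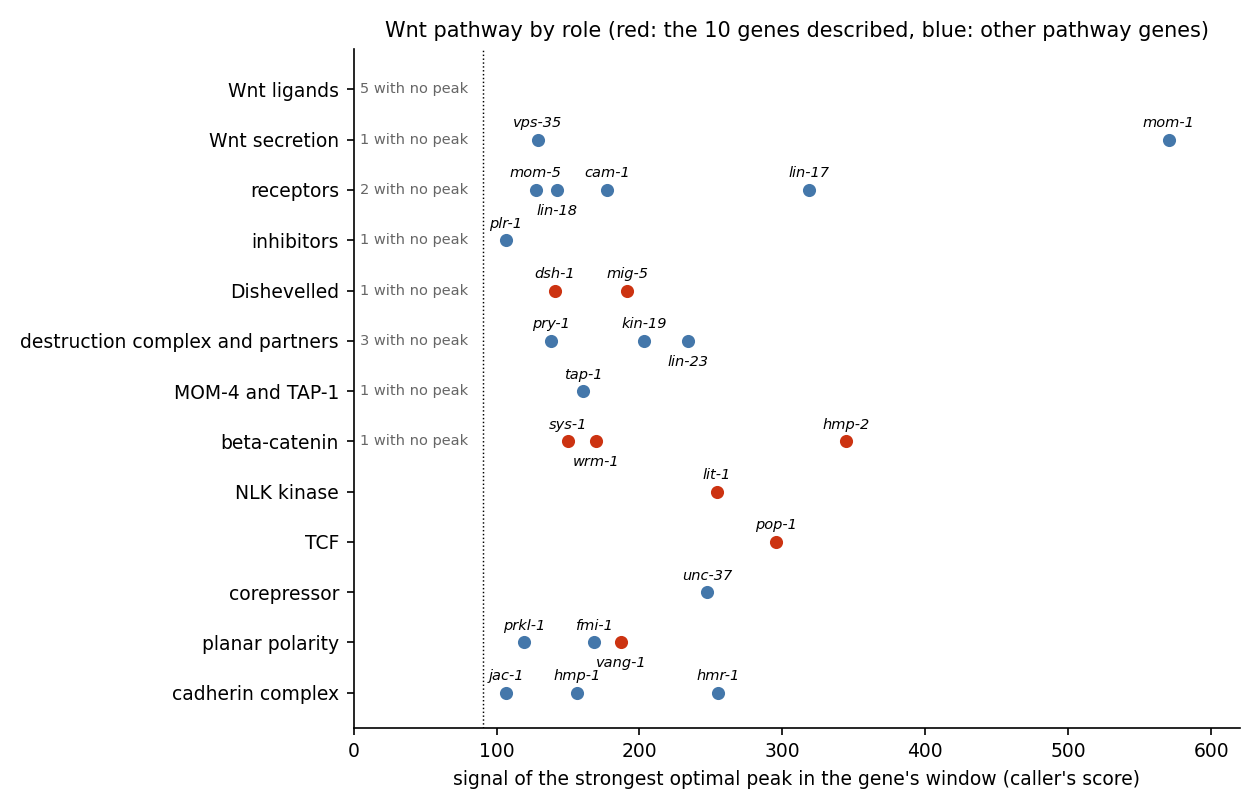
Signal of the strongest optimal peak in the window of each gene (x, caller's score), by role in the pathway (y), for the 10 genes described (red) and 30 others (blue). The dotted line marks the lowest optimal signal of 90.5, and genes without an optimal peak are given as a number at the left; the 5 ligand genes all have none and mom-1 lies highest at 570.3.

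Base runs taken as cores for Bar-class homeodomains, the class of CEH-31, were found at few of these summits. TAATTG, searched on both strands within 100 bp of the summit, was found at 1 of 12 summits, the intronic one of pop-1, and at 12.1% of all 3697 optimal summits. TAAACG was found at 0 of 12 and at 6.1% of all. CTTTGA, the core bound by TCF proteins such as POP-1, was found at 1 of 12 and at 7.8% of all. The 1 was that of wrm-1, where the first base of the match lay 83 bp from the summit. Around all gene starts, in windows of the same 201 bp, the 3 motifs occurred at 15.1%, 6.9% and 13.5%.

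The most raised 6-mers at optimal summits were then searched, a choice made after seeing the data. Over all optimal summits, those with the highest ratio to windows 1000 bp to either side were taken, among the 6-mers found at 5% or more of the summits. The 5 taken can overlap each other and share bases. AGACGC, or GCGTCT on the other strand, was at 23.4% of all optimal summits, 4.1% of flanks and 4.8% of gene starts. It was found at 5 of the 12 Wnt summits, those of sys-1, the 2 upstream ones of pop-1 and 2 of lit-1. GCGCAC was found at hmp-2 and at the distal pop-1 summit (15.6% of all, 2.9% of gene starts), while GCGCGC was at the distal pop-1 summit alone (11.4% of all, 1.6% of gene starts). The run CGCGCG was there too (9.5% of all, 1.4% of gene starts), and ACGCGC was at none of the 12 (14.5% of all, 2.8% of gene starts).

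At least 1 of the 5 was at 6 of the 12 summits, close to the 48.7% of all optimal summits, and at 10.6% of gene starts. Distances were taken from the summit to the first plus-strand base of a match. By this measure the nearest were at hmp-2, 5 and 7 bp away in matches that overlap each other. Next were those at the distal pop-1 peak and the lit-1 peak at 13717698, 10 bp away each. The mig-5, vang-1, dsh-1 and wrm-1 sequences shown above held none of the 5. GC content within 100 bp ran from 39.3% at mig-5 to 63.2% at the lit-1 summit at 13721261. Its median was 46.6% over the 12 and 45.8% over all optimal summits.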

How the data were processed

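The data are peak lists from ChIP-seq of 2 biological replicates, grouped by the labels. The deposited file notes record that the lists of each replicate and of both pooled came from alignments with a control, and that these 3 lists gave the optimal one. Which aligner, caller and IDR cut were used is not given in the sources used here. Signal of a peak (column 7) is the authors' deposited score, of unstated scale, used for ranks and values within a list. The deposited summit offset, added to the peak start, gave the summit. The ce11 lists were used with Ensembl release 115 (WBcel235), the ce10 lists and the control were not used here.

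With Python 3.11.15, numpy 2.4.6 and pandas 2.3.3, summits were counted in windows from 2000 bp upstream of a gene start to the gene end, and in promoter windows. Features were those of protein-coding genes, taken in the order coding exon, 5′ UTR, 3′ UTR, intron. Replicate summits within 200 bp were matched, taking the strongest. Counting was tested on simulated data. No test was run: there was 1 group, and the genes and lists were chosen with earlier results of these data known. Every one of the 10 genes is named, other pathway genes where they hold an optimal summit, and other genes where their start is nearer to a summit described; cct-1 and the non-coding genes were added after their values were seen. The 5 ligand genes, axl-1, apr-1, gsk-3, mom-4 and sfrp-1, named for having none, were added after their values were seen. Alternatives changed the window, threshold, overlap, list, replicate and motif window.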

Additional observations from a re-analysis of the deposited data

How the results depend on the processing

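The number of Wnt genes with an optimal summit, 8 of 10, was 7 with the nearest gene or with the optimal peaks above the median signal. It was 8 by overlap of the peak interval and 9 with the relaxed pooled list (55.2% of all genes). It was 8, with the same 8 genes, without replicate 1 and without replicate 2, taking the 3697 strongest peaks of the other replicate. The optimal list holds the strongest peaks of these replicates pooled, so little change without a replicate, here and below, follows in part from that choice. It fell to 5 with the promoter window (11.5% of all genes), and to 5 with a window from 500 bp upstream to the gene end. Both hold fewer bases. The 12 summits became 5 in promoter windows and 49 in the relaxed pooled list, and 12 to 13 without a replicate. The 5 genes with a promoter summit became 8 with the relaxed pooled list, against 6683 of all 19973 genes. They stayed 5 without either replicate. For the other changed gene counts, the share of all genes was not computed. The median percentile of the strongest peaks, 66.7 in the optimal list, was 95.0 in the relaxed pooled list, 93.9 in replicate 1 and 95.2 in replicate 2, since relaxed lists add weak peaks. Of the 12 summits, 2 had a Bar-class or TCF core within 100 bp (23.5% of all optimal summits), 0 within 50 bp (11.9%), 5 within 200 bp (45.4%), and 6 had one of the raised 6-mers, which were chosen after seeing the data. Of 30 other pathway genes, 17 held a summit, with 8 in promoter windows, 10 with the peaks above the median, and 17 without either replicate (these also added after seeing the data). Depth was unknown, and no limit can be set for genes without a peak.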
